A study of Mus musculus with 23 samples.

Results

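The retinoid metabolism genes described here are 10 genes through which the intestine takes up, stores, oxidizes and senses vitamin A: *Rdh16*, *Rdh7*, *Aldh1a1*, *Aldh1a2*, *Rbp2*, *Lrat*, *Dhrs3*, *Cyp26b1*, *Isx* and *Rarb*. Their probes were all those carrying 1 of these symbols as the gene name in the scanner files. This gave 14 probes on the array, 12 of which were among the 37161 probes of the value table deposited by the authors, a table that covers 17574 named genes. All 10 genes had a probe in the table. *Dhrs3* had 2 probes and *Rarb* had 4, and the brightest probe of each gene was used unless stated otherwise. The set was chosen with the response of WT mice to PCN in view, in which *Rdh16* is lower. Values of that comparison are therefore given for these genes as a description without a test, and the tests are those of the other comparisons.

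The RNA came from ileum of male mice, and each mouse had its own single-colour Agilent array. WT mice (C57Bl6/J) were bought at 6 weeks of age. *Pxr*-/- mice lack the pregnane X receptor (PXR, gene *Nr1i2*) in all tissues, had been backcrossed to the same strain and came from a colony kept in house for 10 years. After 2 weeks of acclimatization, mice of the PCN groups were given pregnenolone 16α-carbonitrile (PCN), a steroid ligand of mouse PXR, by intraperitoneal injection at 100 mg/kg on each of 4 days. The CONT groups were given the corn oil vehicle alone, and the final injection was given 6 h before tissue was taken at ZT6, which the labels call a fed state and the study a semi-fasted one. WT PCN had 5 arrays and each of the other groups, WT CONT, *Pxr*-/- CONT and *Pxr*-/- PCN, had 6, which makes 23. The age of the *Pxr*-/- mice is not given. Genotype and breeding origin cannot be told apart in these groups. An array is 1 mouse, so the spread between arrays includes the spread between animals.

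Dietary vitamin A comes as retinyl esters, retinol or carotenoids, and the enterocyte takes up retinol and carotenoids. Inside the cell, retinol is carried by the binding protein RBP2 and esterified by LRAT for export, or it is oxidized to retinal by retinol dehydrogenases, a step that DHRS3 runs in the opposite direction. Retinal dehydrogenases of the ALDH1A family then make retinoic acid, which binds the retinoic acid receptors and is cleared by CYP26 hydroxylases. In the gut, retinoic acid switches on ISX, a homeobox repressor of the genes for carotenoid uptake and cleavage, and shapes the immune cells of the mucosa.

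The arrays were alike in quality. The median spot signal was 74 to 106.5 per array on the linear scale, against a local background of 19 to 28.5, and at most 2 spots per array were saturated. *Cyp3a11*, a drug-metabolizing P450 and classical PXR target, rose with PCN in WT (log2 change 3.53, SE 0.324, adjusted p 1.49e-06) and not in *Pxr*-/- mice (-0.05, SE 0.308, adjusted p 0.952). The probe of *Nr1i2* itself did not separate the genotypes (-0.41 without PCN, SE 0.146, adjusted p 0.334), and where it lies relative to the deleted part was not analysed here. The 5 ileal marker genes (*Fabp6*, *Slc10a2*, *Fgf15*, *Slc51a*, *Slc51b*) were above background on all 23 arrays. Among markers of neighbouring organs, 3 of 5 pancreatic genes (*Cpa1*, *Pnlip* and *Prss2*) and 1 of 5 hepatocyte genes (*Fga*) were above background on 0 arrays, and the other genes of both lists on all 23. WT PCN replicates 2 and 3 stood apart in B cell markers, with summed linear signals of 12244 and 13197 against 1961 to 2314 on the other WT PCN arrays and 1545 to 2182 in WT CONT. The changes of the members in WT mice are therefore also given without these 2 arrays.

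*Rdh16* and *Rdh7* encode short-chain dehydrogenases of the endoplasmic reticulum that oxidize retinol and some steroid alcohols. They are neighbours in a cluster on chromosome 10, whose order in the RefSeq annotation is *Rdh1*, *Rdh9*, *Rdh16*, *Rdh19*, *Rdh16f2* and *Rdh7*. Because such related genes could share signal on an array, the probes of *Rdh16*, *Rdh7* and *Rdh16f2* are shown, 5′ to 3′, with capitals marking the longest run that a probe shares with the probe of another gene of the cluster.
*Rdh16*: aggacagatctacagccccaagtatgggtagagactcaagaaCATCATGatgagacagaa
*Rdh7*: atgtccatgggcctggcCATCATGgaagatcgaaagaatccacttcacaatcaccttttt
*Rdh16f2*: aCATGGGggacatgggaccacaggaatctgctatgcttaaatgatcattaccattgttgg
These runs were short. The probes of *Rdh16* and *Rdh7* shared at most 7 consecutive bases, those of *Rdh7* and *Rdh16f2* at most 6, and those of *Rdh16* and *Rdh16f2* at most 5, in probes of 60 bases. The *Rdh16* probe is at chr10:127252579-127252638 on the plus strand and the *Rdh7* probe at chr10:127321262-127321321 on the minus strand, both on build mm9 as the array annotation gives them. Probes were compared only with each other and not with the transcripts of the other genes, so the runs cannot tell whether signal is shared. Binding of either probe to transcripts other than its own was not tested.

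*Rdh16* had its lowest values in WT mice given PCN. Its log2 signal was 7.06, 7.65, 8.22, 7.63, 7.55 and 8.21 in WT CONT and 6.83, 6.59, 6.75, 6.45 and 6.27 in WT PCN. Every WT PCN array lay below every WT CONT array. In ileum as a whole, fewer cells of a type and less RNA per cell cannot be told apart. In *Pxr*-/- CONT the signal was 6.96, 7.45, 8.35, 7.70, 7.63 and 7.50, and in *Pxr*-/- PCN it was 8.08, 7.25, 6.73, 6.94, 8.10 and 7.19. The *Pxr*-/- groups overlapped, and within *Pxr*-/- PCN 2 arrays stood near 8.1 with the other 4 between 6.73 and 7.25. The change with PCN in WT was -1.15 (SE 0.256), a factor of 2.22, and it is what brought this gene into the set. It was -1.23 within wash batch 1 and -1.05 within wash batch 2, the batches being the 2 array washes named in the labels, and -1.22 without WT PCN replicates 2 and 3. In *Pxr*-/- mice, whose arrays the choice did not use, the change was -0.22 (SE 0.243, 95% confidence interval -0.72 to 0.29, adjusted p 0.666). It was -0.47 in wash batch 1 and 0.03 in wash batch 2.

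*Rdh7* had its lowest mean in *Pxr*-/- CONT, and its order of groups was not that of *Rdh16*. The log2 signal was 9.49, 9.49, 9.57, 8.85, 9.15 and 9.68 in WT CONT, and 8.30, 8.78, 8.53, 7.98 and 8.80 in WT PCN. The WT groups did not overlap, although their nearest arrays, at 8.85 and 8.80, were close. In *Pxr*-/- CONT it was 7.83, 8.46, 8.39, 8.98, 7.75 and 8.02, and in *Pxr*-/- PCN 10.35, 9.09, 8.48, 8.55, 9.16 and 8.77. The *Pxr*-/- groups overlapped, and the array at 10.35 was the highest of all 23. The change with PCN was -0.89 (SE 0.274) in WT, a description, with -1.32 in wash batch 1, -0.53 in wash batch 2 and -1.01 without WT PCN replicates 2 and 3. In *Pxr*-/- mice the change was 0.83 (SE 0.261, 95% confidence interval 0.29 to 1.37), which missed the threshold (adjusted p 0.0756), and all 6 *Pxr*-/- PCN arrays lay above the *Pxr*-/- CONT mean. It was 0.41 in wash batch 1 and 1.25 in wash batch 2. Without *Pxr*-/- PCN replicate 1, the array at 10.35, it was 0.56 (adjusted p 0.175). Without *Pxr*-/- CONT replicate 4, the highest of its group, it was 0.99 (adjusted p 0.0358) and was called.

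**Figure D1:**
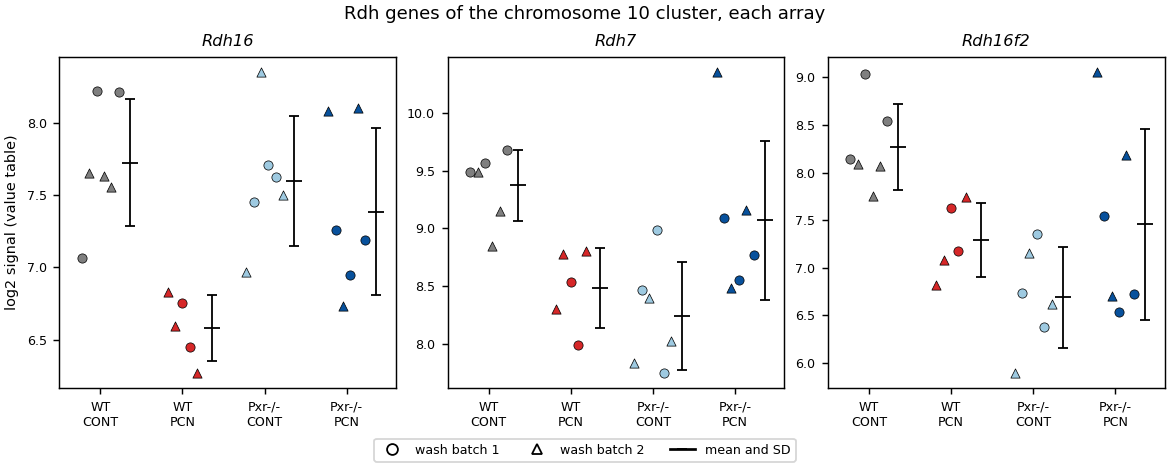
Log2 signal of *Rdh16*, *Rdh7* and *Rdh16f2* (vertical axes, each with its own scale) on every array of the 4 groups (horizontal axis), with circles for wash batch 1, triangles for wash batch 2 and bars for the group mean and SD (n = 6, 5, 6 and 6). All WT PCN arrays lie below all WT CONT arrays in all 3 panels, by less than 0.1 for *Rdh7* and *Rdh16f2*, and 1 *Pxr*-/- PCN array stands at 10.35 for *Rdh7*. The WT groups did not overlap for 2.7% of all probes, and these genes were picked with their WT values known.

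*Rdh16f2*, another retinol dehydrogenase of the cluster and no member of the set, was looked at after its values were seen. In WT mice its log2 signal was 8.27 ± 0.45 (SD, n = 6) in CONT and 7.29 ± 0.39 (n = 5) in PCN. In *Pxr*-/- mice it was 6.69 ± 0.53 in CONT and 7.46 ± 1.00 in PCN (both n = 6), the same order of its CONT and PCN means within each genotype as *Rdh7*. Every *Pxr*-/- CONT array was below every WT CONT array, with a difference of -1.58 (SE 0.351, adjusted p 0.0614). The WT groups did not overlap either, with 7.75 and 7.74 as nearest arrays. Over all probes, groups did not overlap for 1.12% in genotype without PCN and for 2.7% in PCN in WT. The change of *Rdh16f2* with PCN was -0.98 in WT (SE 0.369, adjusted p 0.255) and 0.77 in *Pxr*-/- mice (SE 0.351, adjusted p 0.229). None of these passed the threshold. The change of *Rdh9*, listed just before *Rdh16* in that order, was -0.33 in WT (SE 0.108, adjusted p 0.164) and -0.13 in *Pxr*-/- mice (SE 0.102, adjusted p 0.495).

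The next question was which members moved with PCN when the receptor was absent. A probe was called when its adjusted p was at most 0.05 and its fold change above 1.5, the thresholds of the study. By this rule 0.947% of all probes were called in *Pxr*-/- mice, and 0 of the 10 members. By the adjusted p alone it was 3.7% of all probes and 3 of the 10 members: *Aldh1a1* and *Aldh1a2* rose and *Isx* fell, each by less than 1.5-fold. At an unadjusted p of at most 0.05 there were 5 members, *Rdh7* and *Dhrs3* besides these, and 19.6% of all probes. The 10 changes ran from -0.37 to 0.83 with a median of 0.23, beside a median of 0.00 over all 17574 genes.

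*Aldh1a1* and *Aldh1a2*, both retinal dehydrogenases, had the lowest adjusted p of the 10 members in *Pxr*-/- mice. *Aldh1a1*, which oxidizes retinal to retinoic acid in the epithelium and liver, had a log2 signal of 13.55, 14.15, 14.28, 13.77, 13.95 and 13.95 in *Pxr*-/- CONT and 14.43, 14.57, 14.43, 14.41, 14.71 and 14.28 in *Pxr*-/- PCN. The groups did not overlap, but their nearest arrays were equal at 2 decimals. *Aldh1a1* rose by 0.53 (SE 0.132, adjusted p 0.0271), a factor of 1.45. Without *Pxr*-/- CONT replicate 3, the highest of its group, the change was 0.61 (adjusted p 0.0180) and passed the fold threshold too. The adjusted p rose above the threshold, to at most 0.0781, when 1 of 6 arrays was left out (*Pxr*-/- CONT replicate 1, 4 or 5, or *Pxr*-/- PCN replicate 1, 2 or 5). In WT mice its values were 14.33, 14.76, 14.27, 14.10, 14.32 and 14.56 without PCN and 14.46, 15.09, 15.01, 14.98 and 14.54 with it, a change of 0.43 (SE 0.139) given as a description. It was 0.28 without WT PCN replicates 2 and 3.

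*Aldh1a2*, the retinal dehydrogenase known from mesenchymal and dendritic cells of the gut, was lowest in *Pxr*-/- CONT. Its log2 signal was 9.78, 9.74, 9.83, 9.94, 9.88 and 10.01 in *Pxr*-/- CONT and 10.03, 10.40, 10.23, 10.17, 10.52 and 10.37 in *Pxr*-/- PCN. Here too the groups did not overlap, with a narrow gap. It rose by 0.42 (SE 0.101, adjusted p 0.0225), a factor of 1.34, with 0.46 and 0.39 in wash batches 1 and 2. Without *Pxr*-/- PCN replicate 5, its highest array, the change was 0.37 (adjusted p 0.0663). In WT mice it was 10.02 ± 0.10 (SD, n = 6) in CONT and 10.17 ± 0.28 (n = 5) in PCN, with 3 PCN arrays at 10.17, 10.50 and 10.39 and 2 at 9.92 and 9.87. The low values are those of replicates 2 and 3, the arrays with high B cell marker sums. The WT change was 0.15 (SE 0.106), and 0.34 (SE 0.103) without these 2 arrays. The part of the B cell markers in this was not tested. *Aldh1a1* and *Aldh1a2* were the 2 of 10 members whose *Pxr*-/- groups did not overlap, beside 2.67% of all probes.

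Markers of several other cell types were also higher with PCN in the same mice. All 6 fibroblast markers were higher with PCN in *Pxr*-/- mice and 3 of them were called (*Col1a1* 1.01, *Col3a1* 0.81 and *Lum* 0.82, adjusted p 0.0171, 0.0259 and 0.00459), with a median change of 0.71. Their summed linear signal was 33824 to 60220 in *Pxr*-/- CONT and 54739 to 97501 in *Pxr*-/- PCN. All 6 smooth muscle markers were higher and 2 were called, with sums of 165153 to 254529 and 217476 to 357362, and all 7 macrophage markers were higher and 1 was called, with sums of 10167 to 14512 and 13820 to 15899. Of 5 mesothelial markers 4 were higher and 1 was called (*Msln* 0.74, adjusted p 0.0393), and of 6 dendritic cell markers 5 were higher, with a median change of 0.14, and 0 were called. The dendritic sums were 1862 to 2277 in *Pxr*-/- CONT and 2265 to 2553 in *Pxr*-/- PCN, and the mesothelial sums 2457 to 3680 and 2839 to 6052. The fibroblast, smooth muscle and macrophage markers were above background on all 23 arrays. Of the 8 villus enterocyte markers 7 were higher and 0 were called, with a median change of 0.04. Of the 5 ileal markers 4 were lower, with a median of -0.17, and of the 6 B cell markers 5 were higher, with a median of 0.49. 0 were called in both lists. In WT mice all 6 fibroblast and all 6 smooth muscle markers were higher with PCN, with median changes of 0.34 and 0.37 and with 1 and 0 called, and *Msln* was called there too (0.99, adjusted p 0.0130). The 6 B cell markers were higher with a median of 1.33 and 0 called, and their sums were high on replicates 2 and 3 alone. Of the 8 villus enterocyte markers 6 were higher in WT, with a median change of 0.08 and 0 called. The part of these cell types and gut regions in the changes of *Aldh1a1*, *Aldh1a2* and *Isx* was not tested.

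*Isx*, the homeobox repressor, had high and even signal. It was 14.26, 14.34, 14.15, 13.98, 14.20 and 13.96 in *Pxr*-/- CONT and 13.69, 13.96, 13.79, 13.43, 14.09 and 13.73 in *Pxr*-/- PCN. The groups overlapped between 13.96 and 14.09, and all 6 PCN arrays lay under the CONT mean. It fell by 0.37 on the log2 scale in *Pxr*-/- mice (SE 0.101, adjusted p 0.0445), a factor of 1.29. This stood at the threshold, and the adjusted p was above it, at up to 0.102, for 13 of the 23 arrays left out in turn. In WT mice it was 14.08 ± 0.13 (SD, n = 6) in CONT and 13.88 ± 0.16 (n = 5) in PCN, a change of -0.20 (SE 0.106). The genes that ISX is known to repress are *Bco1*, which cleaves β-carotene, and *Scarb1*, a receptor for carotenoid uptake. With PCN in *Pxr*-/- mice *Scarb1* changed by 0.51 (SE 0.0776, adjusted p 0.00108), a rise of less than 1.5-fold, and *Bco1* by 0.37 (SE 0.155, adjusted p 0.183). In WT mice *Scarb1* changed by 0.32 (SE 0.0816, adjusted p 0.0546) and *Bco1* by 0.20 (SE 0.163, adjusted p 0.690). *Scarb1* and *Bco1* were picked for this known role after their values had been seen. Without PCN, mean *Bco1* was 7.42 in *Pxr*-/- and 8.01 in WT mice, and mean *Scarb1* 8.46 and 8.56. *Isx* differed by 0.07 there (SE 0.101, adjusted p 0.927). A link between *Isx* and these genes was not tested.

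**Figure D2:**
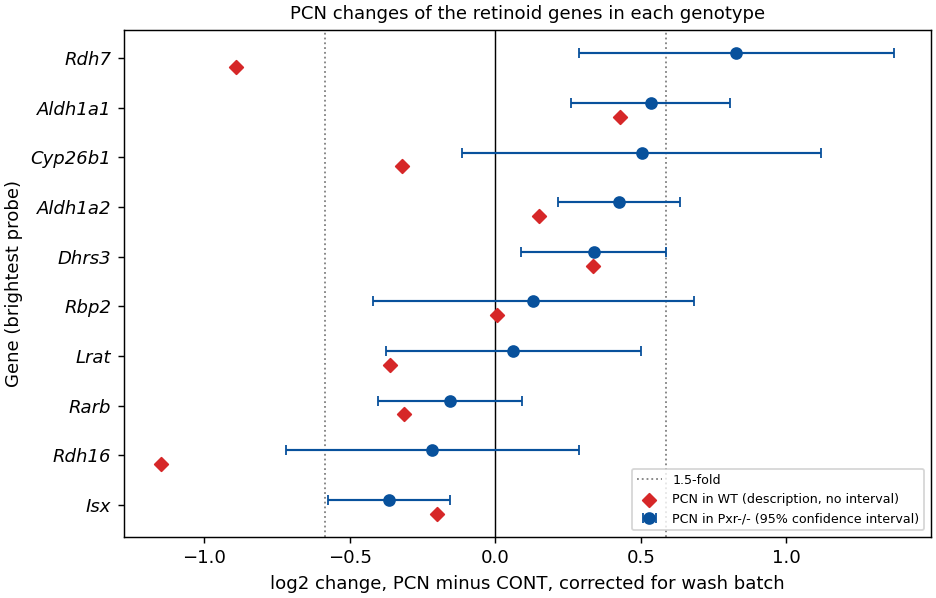
Log2 change with PCN (horizontal axis, PCN minus CONT, corrected for wash batch) of the brightest probe of each of the 10 genes (vertical axis), in *Pxr*-/- mice as circles with 95% confidence intervals and in WT mice as diamonds without intervals, with dotted lines at 1.5-fold. *Rdh7* lies at 0.83 in *Pxr*-/- mice and at -0.89 in WT, *Rdh16* at -0.22 and -1.15, and *Dhrs3* at 0.34 in both.

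Among the genes for retinol storage and retinal reduction, *Dhrs3* had similar values in both genotypes. *Dhrs3* reduces retinal to retinol and is induced by retinoic acid in many tissues. Its log2 signal was 12.64 ± 0.15 (SD, n = 6) in CONT and 12.98 ± 0.24 (n = 5) in PCN for WT mice. For *Pxr*-/- mice it was 12.54 ± 0.18 in CONT and 12.88 ± 0.27 in PCN (both n = 6). The PCN groups were higher than their CONT groups in the mean, with overlapping arrays in each genotype. The *Pxr*-/- change of 0.34 missed the threshold (SE 0.120, adjusted p 0.116), and it was 0.10 in wash batch 1 against 0.57 in wash batch 2. The WT change was 0.34 (SE 0.126). The dimmer *Dhrs3* probe gave 0.26 in *Pxr*-/- mice (SE 0.122, adjusted p 0.248) and 0.23 in WT.

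*Lrat*, which esterifies retinol with long-chain fatty acids, was highest in WT CONT. It ran from 6.88 to 7.94 in WT CONT (median 7.54), with 6.92, 6.93, 7.73, 7.06 and 7.09 in WT PCN, from 6.43 to 7.34 in *Pxr*-/- CONT (median 6.83) and from 6.52 to 7.71 in *Pxr*-/- PCN (median 6.80). All groups overlapped, and the *Pxr*-/- CONT arrays all lay under the WT CONT mean. PCN changed it by 0.06 in *Pxr*-/- mice (SE 0.212, adjusted p 0.906) and by -0.36 in WT (SE 0.222). The *Pxr*-/- value had opposite signs in the wash batches, with -0.30 in batch 1 and 0.42 in batch 2. *Rbp2*, the retinol carrier of the enterocyte, was 10.37 ± 0.57 (SD, n = 6), 10.37 ± 0.33 (n = 5), 10.07 ± 0.39 (n = 6) and 10.20 ± 0.59 (n = 6) in WT CONT, WT PCN, *Pxr*-/- CONT and *Pxr*-/- PCN. Its arrays spread over more than 1 log2 unit in 3 of the groups. The change with PCN was 0.13 in *Pxr*-/- mice (SE 0.266, 95% confidence interval -0.42 to 0.68, adjusted p 0.831) and 0.00 in WT (SE 0.280).

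*Cyp26b1*, which hydroxylates retinoic acid for clearance, was the most variable gene among those that act after retinoic acid is made. It ran from 8.65 to 9.95 in WT CONT (median 9.26), from 8.08 to 9.40 in *Pxr*-/- CONT (median 8.38) and from 8.07 to 10.14 in *Pxr*-/- PCN (median 9.13), with 8.81, 8.63, 9.68, 8.78 and 9.07 in WT PCN. No group stood apart. Its change with PCN was 0.50 in *Pxr*-/- mice (SE 0.298, adjusted p 0.363) and -0.32 in WT (SE 0.313).

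*Rarb* encodes retinoic acid receptor β and is itself a textbook target of retinoic acid. Its brightest probe was 7.60, 7.56, 7.51, 7.25, 7.49 and 7.33 in WT CONT and 7.08, 7.04, 7.22, 7.23 and 7.14 in WT PCN. The WT groups did not overlap, with 7.25 and 7.23 as nearest arrays, and the change was -0.32 (SE 0.125), again a description. The *Pxr*-/- groups overlapped, from 7.03 to 7.52 in CONT and from 6.78 to 7.63 in PCN (-0.16, SE 0.119, adjusted p 0.502). The dimmer probe in the table gave -0.25 in WT and -0.11 in *Pxr*-/- mice, and was above background on 3 of 5 WT PCN and 3 of 6 *Pxr*-/- PCN arrays and on all arrays of the CONT groups. The other 2 *Rarb* probes were above background on 0 arrays, with a scanner signal of 24 to 38. *Rdh16*, *Rdh7* and *Rarb* were the 3 of 10 members whose WT groups did not overlap, beside 2.7% of all probes. By the adjusted p and fold, 0.692% of all probes were called in WT. The set was chosen on this comparison, so nothing is read from these shares. Without WT PCN replicates 2 and 3, the WT change was -0.31 for *Rarb* and *Isx*, -0.45 for *Cyp26b1*, -0.50 for *Lrat*, 0.47 for *Dhrs3* and -0.22 for *Rbp2*, whose sign turned.

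**Figure D3:**
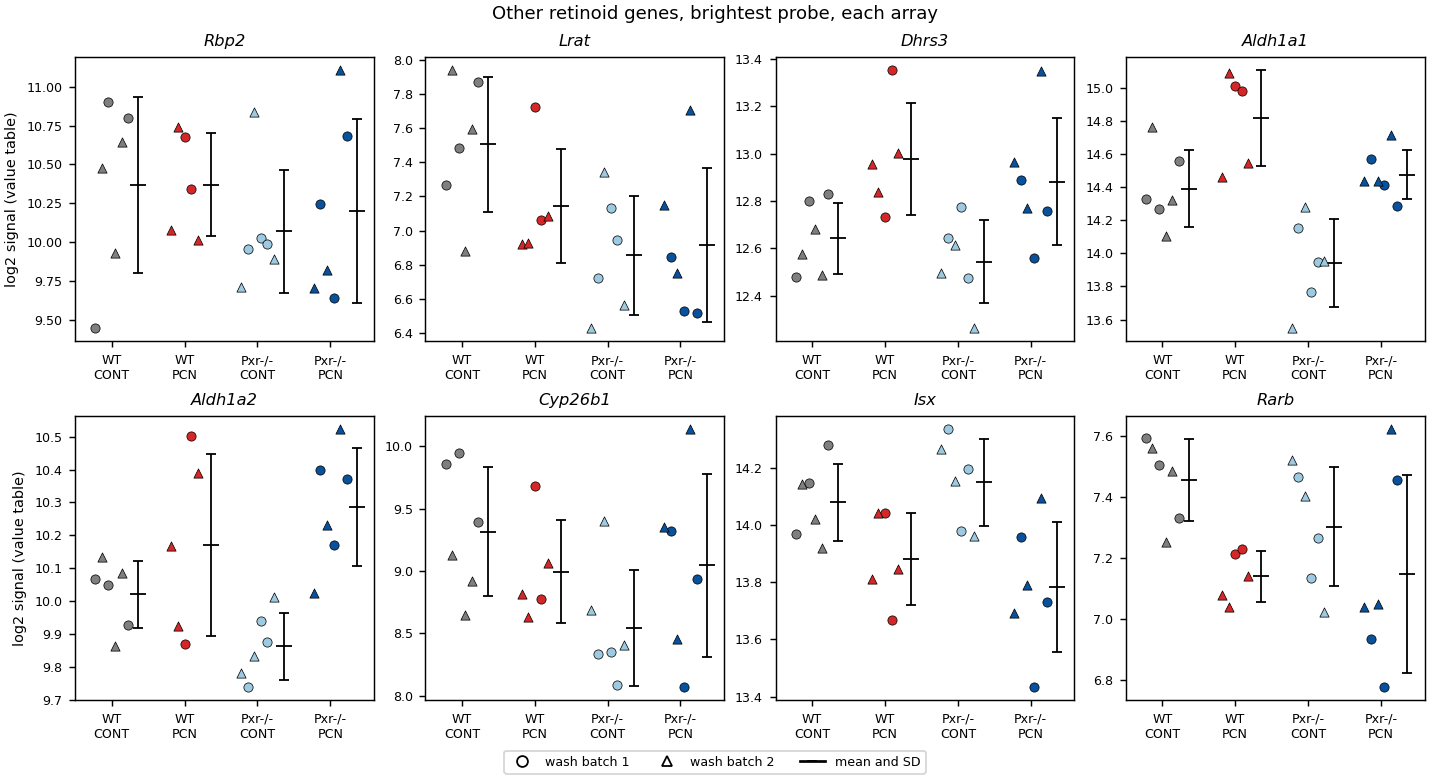
Log2 signal of the other 8 genes (vertical axes, each with its own scale, brightest probe) on every array of the 4 groups (horizontal axis), with circles for wash batch 1, triangles for wash batch 2 and bars for the group mean and SD. The *Pxr*-/- groups do not overlap for *Aldh1a1* and *Aldh1a2*, and the WT groups do not overlap for *Rarb*.

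Promoters were examined for the elements that PXR and retinoic acid receptors are known to bind, as partners of RXR. Windows of 300 bases around the RefSeq gene starts (250 before and 50 after, build GRCm38.p6) were searched on both strands for the motifs DR2, DR3, DR4, DR5 and ER6, which join receptor hexamers in direct (DR) or everted (ER) repeats with the spacer of that number. The hexamer was AGGTCA, with G also allowed as the first base and T as the third. All 10 members had a window, 14 windows in all, and 1 of these held a match. That was a DR5 in *Rarb*, starting at position -53 from the gene start. The window is chr14:16575427-16575726 on the minus strand, and capitals mark the match.
*Rarb*: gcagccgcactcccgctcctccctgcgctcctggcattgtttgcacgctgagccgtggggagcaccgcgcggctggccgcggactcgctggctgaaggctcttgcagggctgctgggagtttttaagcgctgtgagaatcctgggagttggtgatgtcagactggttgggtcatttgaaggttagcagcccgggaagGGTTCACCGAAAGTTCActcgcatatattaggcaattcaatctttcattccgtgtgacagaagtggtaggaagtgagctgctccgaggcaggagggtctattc
A DR5 was found in 0.0974% of the 32851 windows of that length, a DR2 in 0.268%, a DR3 in 0.0396%, a DR4 in 0.0822% and an ER6 in 0.0304%. The window of *Rdh16*, the member with the largest change in WT, is given for comparison. It lies at chr10:127800903-127801202 on the plus strand and held none of these motifs, which says only that these letters are not in it.
*Rdh16*: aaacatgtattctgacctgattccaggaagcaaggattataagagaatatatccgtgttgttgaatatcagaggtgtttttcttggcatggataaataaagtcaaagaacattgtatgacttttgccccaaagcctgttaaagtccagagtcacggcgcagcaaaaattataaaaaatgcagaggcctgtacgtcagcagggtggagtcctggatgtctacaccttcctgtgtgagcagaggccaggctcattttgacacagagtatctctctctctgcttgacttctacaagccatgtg

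The genotypes were then compared without PCN. This comparison shares the WT CONT arrays with the comparison that chose the set. 0 of the 10 members were called, beside 0.148% of all probes, and 9 of 10 were lower in *Pxr*-/- CONT, *Isx* being the exception. The median change of the members was -0.23, beside -0.00 over all genes. At an unadjusted p of at most 0.05 there were 9.03% of all probes and 4 members: *Rdh7* (-1.13, SE 0.261, adjusted p 0.0780), *Lrat* (-0.65, SE 0.212, adjusted p 0.268), *Cyp26b1* (-0.77, SE 0.298, adjusted p 0.405) and *Aldh1a1* (-0.45, SE 0.132, adjusted p 0.204). All 6 *Pxr*-/- CONT arrays lay under the WT CONT mean for *Rdh7*, *Lrat* and *Aldh1a1*, and 5 of 6 for *Cyp26b1*. Among gut markers, 3 of 4 colon genes were higher in *Pxr*-/- CONT (median 0.49), and 4 of 7 proximal small intestine genes (0.05). All 5 ileal genes (0.11) and 4 of 8 villus enterocyte genes (-0.03) were higher too. 0 genes of these lists were called, and their part in the members was not tested.

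The *Rdh7* difference between untreated genotypes stood close to the threshold. It was -1.18 in wash batch 1 and -1.08 in wash batch 2. It was called without *Pxr*-/- CONT replicate 4 (-1.29, adjusted p 0.0309), without *Pxr*-/- PCN replicate 1 (adjusted p 0.0112) and when only the 2 groups compared were fitted (adjusted p 0.0107). In 21 of the 23 fits with 1 array left out it was not called, with an adjusted p of up to 0.225. It was also not called in 12 of the 15 alternatives, with an adjusted p of up to 0.689. The highest *Pxr*-/- CONT array, at 8.98, lay above the lowest WT CONT array, at 8.85, so the groups overlapped. 0 of the 10 members had groups that did not overlap in this comparison, beside 1.12% of all probes. For *Cyp26b1* the difference was -1.48 in wash batch 1 and -0.07 in wash batch 2. *Rdh16* differed by -0.12 (SE 0.243, 95% confidence interval -0.63 to 0.38, adjusted p 0.954).

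With PCN in both genotypes, 0 of the 10 members were called, beside 0.366% of all probes. This comparison shares the WT PCN arrays with the one that chose the set, so the values of *Rdh16* and *Rdh7* carry that choice. *Rdh16* was 0.81 higher in *Pxr*-/- PCN than in WT PCN (SE 0.256, adjusted p 0.269) and *Rdh7* was 0.59 higher (SE 0.274, adjusted p 0.680). For both genes all 6 *Pxr*-/- PCN arrays lay above the WT PCN mean. Without WT PCN replicates 2 and 3 these differences were 0.88 and 0.71 (adjusted p 0.442 and 0.725). The difference of *Aldh1a1* was -0.35 (*Pxr*-/- PCN minus WT PCN, SE 0.139, adjusted p 0.537), with all 6 arrays under the WT PCN mean. The other 7 members had differences between -0.23 and 0.12 with adjusted p of 0.992 or more. 0 members had groups that did not overlap, beside 1.11% of all probes. Of the gut markers, 4 of 4 colon genes were higher in *Pxr*-/- PCN (median 0.58), and 3 of 7 proximal small intestine genes (-0.04). The ileal list had 1 of 5 higher (-0.06) and the villus enterocyte list 4 of 8 (-0.02). 0 genes of these lists were called, and their part in the members was not tested.

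The PCN change in WT minus that in *Pxr*-/- mice contains the comparison that chose the set, so it is given for the members without a test. It was -1.72 (SE 0.379) for *Rdh7*, -0.93 (SE 0.353) for *Rdh16* and -0.82 (SE 0.433) for *Cyp26b1*, and lay between -0.42 and 0.17 for the other 7. For *Rdh7* it was -1.73 within wash batch 1 and -1.79 within wash batch 2. Over all probes, 0.078% were called for this difference.

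Members also varied within groups, some of them together. After wash batch and group means were removed, the Pearson correlation over the 23 arrays ran from -0.22 to 0.67 over the 45 pairs, with a median of 0.39. It was 0.67 between *Rdh16* and *Lrat*, 0.65 between *Rdh16* and *Rbp2*, 0.63 between *Aldh1a1* and *Lrat* and 0.54 between *Rdh16* and *Rdh7*. *Aldh1a2* had the 4 pairs below 0 (with *Rdh7*, *Isx*, *Rdh16* and *Aldh1a1*) and a median of 0.08. These values are a description, since the points share arrays and labelling. *Pxr*-/- PCN replicate 5 was the highest of its group for *Rdh16*, *Aldh1a1*, *Aldh1a2*, *Rbp2*, *Lrat*, *Dhrs3*, *Cyp26b1*, *Isx* and *Rarb*, that is, for 9 of the 10 genes. The same array had the highest sum of its group for the villus enterocyte (738609), proximal small intestine (40617) and smooth muscle (357362) markers. It was also highest for the mesothelial (6052), macrophage (15899), adipocyte (5475) and pancreatic (3562) markers, while its B cell sum (1481) was the lowest of its group. The part of this in the members was not tested. Over all 17574 genes, those whose brightest probe was most like *Rdh16* across the 23 arrays were *Chp2* (r 0.773), *Arhgef16* (0.770), *Vnn1* (0.768), *Slc44a4* (0.743) and *Gm30456* (0.739). With wash batch and group means removed, these genes had r of 0.64 to 0.73. Their changes with PCN in WT were smaller than that of *Rdh16*, from -0.44 for *Vnn1* to -0.20 for *Arhgef16*. The correlation that picked these genes kept the group differences in, so their falls in WT are partly built into that choice.

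The rest of the retinoid pathway was followed through gene lists by role, of which 39 further genes in the value table are reported. With PCN in *Pxr*-/- mice 0 of these 39 were called, 26 being higher and 13 lower with a median change of 0.12. By the adjusted p alone 2 rose (*Scarb1* and *Stra6l*) and 1 fell (*Tgm2*), each by less than 1.5-fold. Before adjustment, 16 had a p no higher than 0.05, beside the 19.6% of all probes given above.

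By role, the uptake and cleavage genes had 5 of 6 higher with PCN in *Pxr*-/- mice, with a median change of 0.37. 2 of them passed the adjusted p, *Scarb1* and *Stra6l* (0.45, SE 0.109, adjusted p 0.0238), a relative of the retinol transporter gene *Stra6*. *Stra6* changed by 0.00 (adjusted p 0.999) and *Bco2*, the other carotenoid-cleaving enzyme, by -0.14 (adjusted p 0.638). Of 5 binding protein genes 3 were higher and 2 lower, with *Fabp5*, a carrier of fatty acids and retinoic acid, at 0.42 (adjusted p 0.0722), *Rbp7*, a retinol-binding protein, at -0.40 (adjusted p 0.219) and *Rbp4*, the retinol carrier of plasma, at 0.07 (adjusted p 0.865). Of the 4 genes for making and hydrolysing retinyl esters, 0 passed, with *Dgat1* at 0.02, *Lipe* at 0.44 and *Lpl* at 0.32 (adjusted p 0.925, 0.0852 and 0.595).

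Of the other 15 retinol dehydrogenases and retinal reductases, 0 passed the adjusted p in *Pxr*-/- mice, 7 being higher and 8 lower with a median of -0.03. The brightest were *Dhrs4* (0.20, adjusted p 0.144), *Rdh9* and *Adh1* (0.28, adjusted p 0.325). The further retinal dehydrogenases *Aldh1a3* and *Aldh1a7* changed by 0.42 and 0.18 (adjusted p 0.0795 and 0.485), both in the direction of *Aldh1a1* and *Aldh1a2* but short of the threshold. The hydroxylases *Cyp26a1* and *Cyp26c1* were not in the value table. All 5 receptor genes were higher, by 0.02 to 0.16, and 0 passed. Among the targets of retinoic acid receptors, *Tgm2*, a transglutaminase, fell by 0.50 on the log2 scale (SE 0.128, adjusted p 0.0323), less than 1.5-fold, while *Nrip1* was at 0.13 (adjusted p 0.554).

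In the other comparisons 0 of the 39 genes passed the adjusted p. The counts at an unadjusted p of at most 0.05 were 15 for PCN in WT, 13 for genotype without PCN, 5 for genotype with PCN and 6 for the difference between the PCN changes, beside 11.8%, 9.03%, 7.05% and 4.52% of all probes. The lowest adjusted p were 0.0546 for PCN in WT (*Scarb1*), 0.0614 for genotype without PCN (*Rdh16f2*), 0.0766 for genotype with PCN (*Aldh1a7*, -0.57) and 0.498 for the difference between the PCN changes (*Rbp7*). Without PCN, 28 of the 39 genes were lower in *Pxr*-/- mice, with a median of -0.10.

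**Figure D4:**
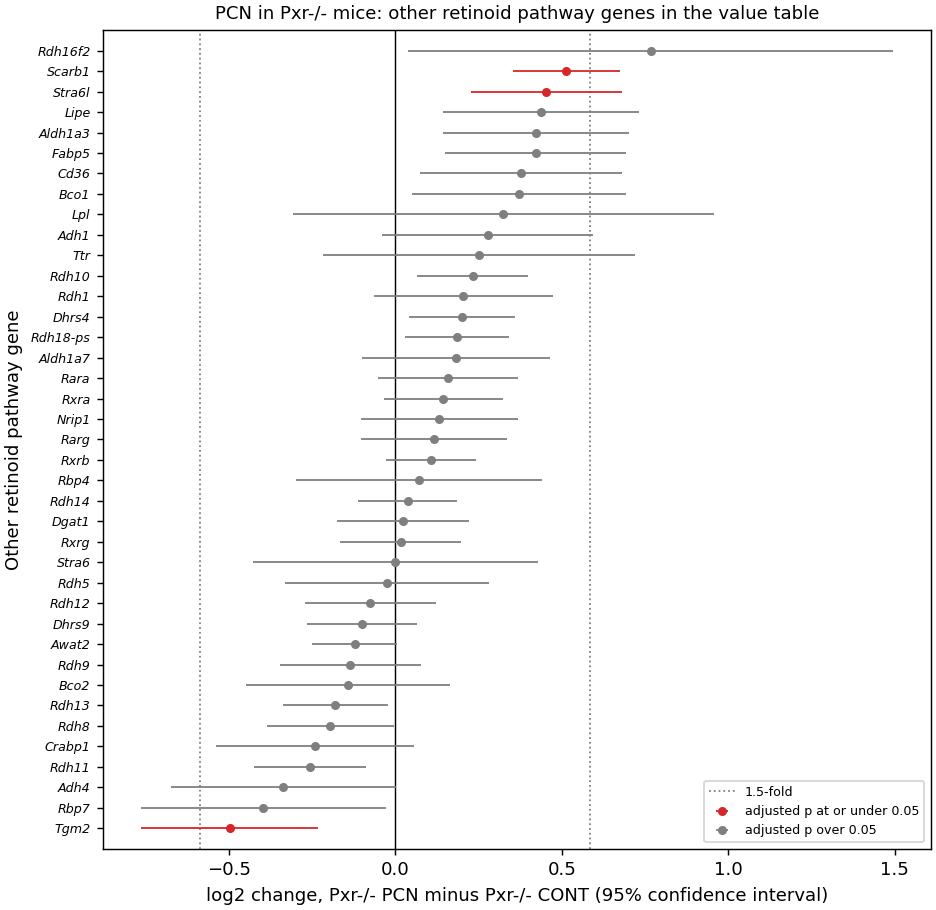
Log2 change with PCN in *Pxr*-/- mice (horizontal axis, with 95% confidence intervals) of 39 other retinoid pathway genes in the value table (vertical axis, ordered by change), in red where the adjusted p was at or under 0.05, with dotted lines at 1.5-fold. The red points, *Scarb1*, *Stra6l* and *Tgm2*, lie inside the fold lines, and *Rdh16f2* at 0.77 has an interval from 0.04 to 1.49.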

How the data were processed

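Total RNA of ileum (150 ng per mouse) was labelled with Cy3 and hybridised to Agilent single-colour arrays. Spot intensities in the scanner files were produced by the authors with Agilent Feature Extraction 10.10.1.1, per the submitters' processing notes. The value table deposited by the authors holds normalized log2 values of 37161 probes. The columns all have a median of 8.02, and its values rise with the log2 spot intensity of the same array at a slope of 0.975 to 1.03. By the study's methods, the log2 values were filtered, corrected for the washing bath and normalized with CrossNorm. How arrays were grouped in CrossNorm is not given in the sources used here. Wash batch was kept as a covariate, although the values had been corrected for it.

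From these values, limma 3.58.1 (R 4.3.3, data.table version 1.17.8) fitted the 4 groups with wash batch as covariate over all 23 arrays, and p-values were Benjamini-Hochberg adjusted over all probes. Calls needed both a fold above 1.5 and an adjusted p no higher than 0.05. Intervals are 95% confidence intervals. The code was tested on simulated data. The results of 2 genes of the pathway lists are not reported here. The members and gene lists were chosen with earlier results of these data known. Named genes were all members, other pathway genes called in any comparison or else the 3 brightest of each list, the 5 genes most like *Rdh16*, and *Nr1i2*, *Cyp3a11* and *Cyp2b10*. *Scarb1*, *Bco1*, *Rdh16f2* and genes passing the adjusted p alone were added after their values were seen. Probe positions are mm9, from the scanner files. Promoters are from RefSeq on GRCm38.p6. Alternatives were other scalings and background corrections, slide and replicate blocks, separate washes, each array left out, and, chosen after seeing the data, WT PCN replicates 2 and 3 left out together. The number of arrays limits the precision.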

Additional observations from a re-analysis of the deposited data

Results flagged for a closer look

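In 48 groups of arrays examined for a sample far from the others, 5 such samples were found, and chance marks about 1 in 20 groups. *Rdh7* in *Pxr*-/- PCN replicate 1 was 10.35. *Rbp2* in *Pxr*-/- CONT replicate 3 was 10.84 and *Lrat* in WT PCN replicate 3 was 7.73, each the highest of its group. The dimmer *Dhrs3* probe was 7.24 in WT PCN replicate 3, the lowest of its group, and 7.89 in *Pxr*-/- PCN replicate 5, the highest.

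The PCN change of *Rdh7* in WT minus that in *Pxr*-/- mice was -1.72, with every WT PCN array under the WT CONT mean and every *Pxr*-/- PCN array above the *Pxr*-/- CONT mean. This difference was not tested, since the gene was chosen with the WT response known. For *Rbp7*, which was not a member, the difference was 0.91 in the opposite direction (adjusted p 0.498).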

How the results depend on the processing

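Each result was recomputed under 15 alternatives, 1 of them (WT PCN replicates 2 and 3 left out) chosen after seeing the data, and with each of the 23 arrays left out. Of these alternatives, dropping the fold threshold and keeping probes well above background left the fit as it was, so they could turn no value. All 37161 probes of the value table passed that background rule. In the tested comparisons 12 of 450 single-gene values turned under the alternatives, those included. In PCN in WT and the interaction, which are descriptions, 13 of 290 turned. These were *Rbp2* in WT (0.00, turned to between -0.22 and -0.0014) and the interactions of *Dhrs3* (0.0097 to 0.24), *Aldh1a1* (0.14) and *Lrat* (0.16), the last pair within wash batch 1. For genotype under PCN, *Rarb* was -0.0152 with processed signals, -0.0832 with slide as a fixed block and -0.17 within wash batch 1, and *Cyp26b1* was -0.13 with slide as a fixed block and -0.45 within wash batch 1. Within wash batch 1, *Lrat* changed by -0.30 with PCN in *Pxr*-/- mice. Within wash batch 2, *Rdh16* changed by 0.0324 with PCN in *Pxr*-/- mice, and *Dhrs3* and *Lrat* by 0.0954 and 0.22 for genotype under PCN. Without WT PCN replicates 2 and 3, genotype under PCN was 0.0120 for *Isx*, 0.0544 for *Rbp2* and -0.0712 for *Aldh1a2*, 14 probes were called for the interaction, and 1 other pathway gene (*Adh1*) for PCN in WT. The cause was not tested.

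For genotype without PCN, members called were 1 with median centring (*Rdh7*), 2 with slide as a fixed block (*Rdh7* and *Lrat*) and 1 with only the groups compared (*Rdh7*). Other pathway genes called were 1 with median centring, with no wash term, with slide as a random block and with only the groups compared, each time *Rdh16f2*, and 2 with slide as a fixed block (*Rdh16f2* and *Bco1*). All probes called were 257 with slide as a fixed block and 146 with only the groups compared, against 55. Other pathway genes called were also 1 for PCN in *Pxr*-/- mice with processed signals (*Scarb1*) and 1 for PCN in WT with only the groups compared (*Rdh16f2*). The interaction had 17 probes with slide as a fixed block, against 29, and was not fitted with only the groups compared.

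With no fold threshold, PCN in *Pxr*-/- mice had 1375 probes, 3 members and 3 other pathway genes, and the probes were 84 for genotype without PCN, 233 for genotype under PCN and 488 for PCN in WT. Within wash batch 1 and wash batch 2, which hold fewer arrays, the probes were 10 and 159 for PCN in *Pxr*-/- mice, 4 and 21 for genotype without PCN, 77 and 47 for genotype under PCN, 47 and 49 for PCN in WT and 3 and 0 for the interaction.

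With 1 array left out, probes called ran from 232 (without *Pxr*-/- PCN replicate 5) to 429 for PCN in *Pxr*-/- mice, from 33 to 113 for genotype without PCN, from 113 to 190 for genotype under PCN, from 205 to 282 for PCN in WT and from 19 to 39 for the interaction. Members called ran from 0 to 1 for PCN in *Pxr*-/- mice and for genotype without PCN. Other pathway genes ran from 0 to 1 for PCN in either genotype and for either genotype comparison. Single changes that turned in the tested comparisons ran from -0.0963 to 0.0806 (*Rarb*), -0.19 to 0.25 (*Cyp26b1*) and -0.20 to 0.0063 (*Dhrs3*) for genotype under PCN, from -0.10 to 0.16 (*Lrat*) and -0.0622 to 0.29 (*Rbp2*) for PCN in *Pxr*-/- mice and from -0.27 to 0.0185 (*Rdh16*) for genotype without PCN. Among the descriptions 19 of 460 values turned, to between -0.18 and -0.0002 for *Rbp2* in WT, between 0.0022 and 0.11 for the *Dhrs3* interaction and to 0.0762 for the *Rbp2* interaction.

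Replicate numbers were not treated as pairs in the main fit. Over 33 pairs of the same number the correlation of deviations was -0.205 to 0.423, with 6 above 0.1. Its median was -0.035, beside -0.0035 for pairs of different numbers. For 7 of 23 arrays the best correlation was with their own number, and how many chance would give was not computed. With the replicate block, 303 probes were called for PCN in *Pxr*-/- mice, against 352, and 0 members, with *Rdh7* at 0.83 (adjusted p 0.120).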
